A study of Mus musculus with 6 samples.

Results

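Messenger RNA of 10 genes of the transforming growth factor beta (TGF-beta) system was followed in mouse lenses with and without a conditional deletion of the fibronectin gene. The genes are the ligands Tgfb1, Tgfb2 and Tgfb3, the receptors Tgfbr1, Tgfbr2 and Tgfbr3, the signal carriers Smad2 and Smad3, the inhibitor Smad7, and Tgfbi, a matrix protein named for its induction by TGF-beta. They were found by their symbols, and all 10 are among the 41449 rows of the expression table. Lens RNA was sequenced in 6 libraries, each from 2 lenses of mice aged 2 months. The 3 wild-type libraries (WT) came from C57BL/6 mice. The 3 knockout libraries (FNcKO) came from mice with a conditional deletion of fibronectin (Fn1), on a mixed background of C57BL/6, 129 and FVB/N. The labels call the samples of a genotype biological replicates and name no Cre line. Because strain divides the libraries exactly as genotype does, an effect of strain and an effect of the deletion cannot be told apart.

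TGF-beta is secreted bound to its own propeptide and to a latent TGF-beta binding protein, and this latent complex is stored in a matrix of fibrillin and fibronectin until integrins or proteases release it. The freed ligand binds the type II receptor (Tgfbr2), which activates the type I receptor (Tgfbr1), and this kinase phosphorylates Smad2 and Smad3, which enter the nucleus with Smad4. In the lens, TGF-beta is best known for turning lens epithelial cells into myofibroblast-like cells that make matrix, as happens in posterior capsular opacification after cataract surgery.

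The levels are FPKM, in which fragments are scaled to transcript length and to the size of the library, and so can be compared between genes. A gene was tested when its mean over the libraries was at least 1 FPKM, which 10149 genes met, 7 of the 10 TGF-beta genes among them. Tgfbr2, Tgfbr3 and Tgfbi lay below that level and are described without a model test. By limma on log2(FPKM + 1), 0 of the 7 tested genes had an adjusted p under 0.05, against 1.89% of all tested genes (192 of 10149), of which 0.857% were higher and 1.03% lower in FNcKO. Smad3 was the 1 gene of the 7 with an unadjusted p under 0.05, against 18.1% of all tested genes. The count was also 0 in each of 17 alternative fits. On the deposited scale the libraries of the genotypes did not overlap for 3 of the 10 genes: Tgfbr3 and Smad3, lower in FNcKO, and Tgfbi, higher in FNcKO. Of the 7 tested genes only Smad3 did not overlap, against 25.6% of all tested genes and 25.1% of those with a value in all 6 libraries. Tgfbr3 and Tgfbi lay below the filter and are not part of that comparison. Of genes with a mean of 0.3 to 1 FPKM and a value in all 6 libraries, 17.8% did not overlap.

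Fibronectin mRNA, the target of the deletion, was low in every library. Fn1 stood at 0.135, 0.188 and 0.253 FPKM in WT and at 0.128, 0.0482 and 0.0942 FPKM in FNcKO, a mean 2.13-fold lower in FNcKO without overlap (exact two-sided permutation p = 0.1, the smallest that 3 against 3 allows). Of 6 lens fiber markers, 5 had a value in every library. Their sum was 137606 to 143677 FPKM in WT and 137980 to 145587 FPKM in FNcKO. Most of it was Crybb2, lower in FNcKO (means of 96926.4 and 90094.8 FPKM), and Cryaa, higher (39127.5 and 45100.1 FPKM). Neither overlapped between the genotypes. Of the 6 markers, 5 had a log2 change above 0, 4 did not overlap and 0 passed limma's test. The defining cornea genes Krt12 and Kera and the endothelial gene Cdh5 were listed at 0. Other genes of those lists were present: Aldh3a1 of the cornea list at 25.6 to 30.7 FPKM in WT and 13.6 to 43.3 FPKM in FNcKO, and Egfl7 of the endothelium list at 1.001 to 1.08 and 1.14 to 1.54 FPKM, without overlap. The 5 lens epithelium markers summed to 50.3 to 55.2 FPKM in WT and 52.2 to 64.3 FPKM in FNcKO. Of these, Slc7a5 (means of 6.91 and 10.3 FPKM) and Epha2 (5.74 and 8.33 FPKM) passed limma's test as higher. Foxe3 had a lower mean, with overlap. The 7 photoreceptor markers with a value in every library summed to 20.6 to 56.7 FPKM in WT and 29.5 to 31.6 FPKM in FNcKO. Gnat1, with 2 WT values, passed as lower (means of 20.6 and 9.42 FPKM). Of 6 markers of the neighbouring ciliary body and iris, the 5 with a value in every library summed to 20.01 to 29.2 FPKM in WT and 51.4 to 69.1 FPKM in FNcKO, a difference carried by Optc (means of 18.3 and 42.9 FPKM) and Aqp1 (5.27 and 15.6 FPKM). Wfdc1 and Zic1 overlapped between the genotypes, as did Myh11 and Des, at means of at most 0.137 FPKM. Whether the RNA of Optc and Aqp1 came from those tissues or from lens cells was not tested. The 8 pigment cell markers summed to 11.6 to 19.0 FPKM in WT and 6.67 to 8.46 FPKM in FNcKO. WT replicate 2 has no value in 3578 rows, and those of Smad3 and Tgfbr2 are among them. Depth, estimated from the steps between low values, lay between 27100000 and 31900000 fragments for WT libraries and between 20100000 and 21500000 for those of FNcKO.

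In the lens the ligands were the most abundant of the 10 mRNAs and Tgfbr2 the least. In both genotypes the order of the mean levels was Tgfb2, Tgfb3, Tgfb1, Smad3, Tgfbr1, Smad2, Smad7, Tgfbr3, Tgfbi and Tgfbr2. Tgfb2 lay above 93.1% of the rows with a value above 0, Tgfb3 above 89.9% and Tgfb1 above 79.6%, whereas Tgfbr2 lay above 35.0%. Neighbours in the order overlapped in WT for Smad7 and Tgfbr3 and for Tgfbi and Tgfbr2. In FNcKO they overlapped for Smad3 and Tgfbr1 and for Smad2 and Smad7. All other neighbours in the order were separate in every library that had a value.

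**Figure D1:**
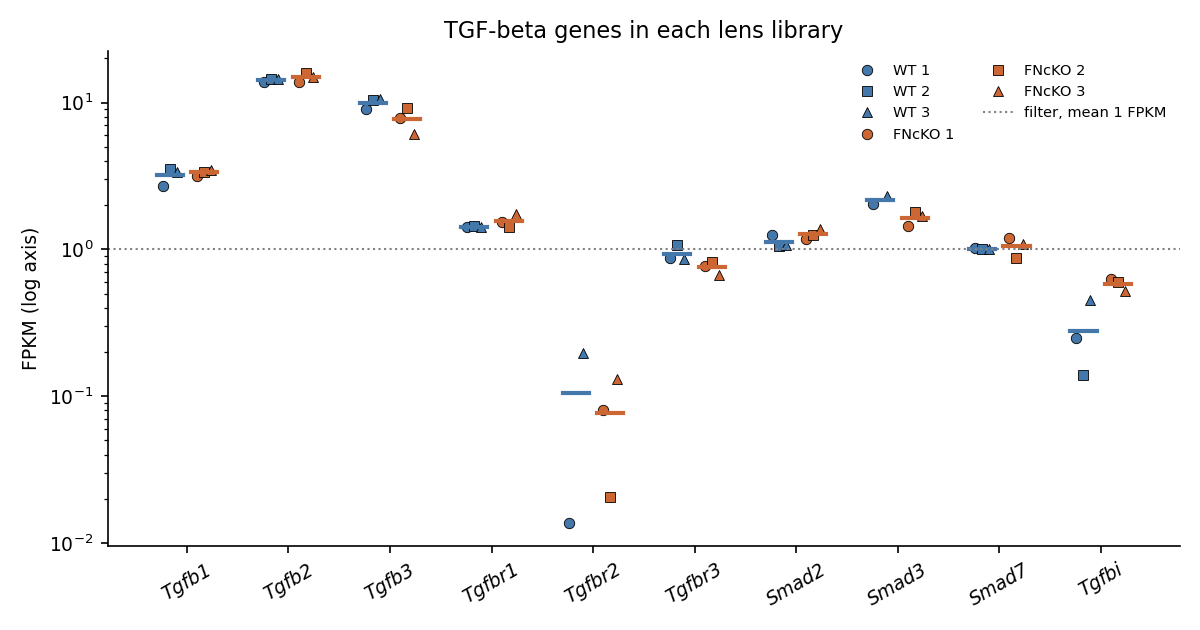
FPKM (log axis) of the 10 TGF-beta genes in each library, WT in blue and FNcKO in orange, with circle, square and triangle for replicates 1, 2 and 3, a bar for each group mean and a dotted line at the mean of 1 FPKM needed for a test. Tgfb2 is highest in all 6 libraries, at 13.7 to 15.8 FPKM, Tgfbi is the gene whose FNcKO points all lie above the WT points, and those of Tgfbr3 and Smad3 all lie below.

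The promoters of Tgfb2, Tgfb1 and Tgfbi are shown. Tgfb2 was chosen as the most abundant ligand and Tgfb1 as the ligand best studied in fibrosis. Tgfbi was chosen as the gene, among the 10, that is named for its induction by TGF-beta and had separate groups. Each window runs from 250 bases before to 50 bases after the start in RefSeq (GRCm38.p6), written 5′ to 3′ on the gene's strand. Capitals mark matches, on either strand, to the motifs searched: the Smad box CAGAC, the AP-1 site TGANTCA, the cyclic AMP response element TGACGTCA, the TATA box TATAAA, the CCAAT box (its own letters) and the GC box GGGCGG.
Tgfb2 promoter, chr1:186705940-186706239, minus strand: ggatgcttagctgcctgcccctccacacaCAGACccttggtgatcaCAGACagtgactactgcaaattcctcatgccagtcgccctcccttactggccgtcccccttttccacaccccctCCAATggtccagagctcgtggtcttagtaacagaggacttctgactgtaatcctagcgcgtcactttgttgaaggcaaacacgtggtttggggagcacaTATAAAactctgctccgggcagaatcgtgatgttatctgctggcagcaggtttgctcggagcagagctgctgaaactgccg
Tgfb1 promoter, chr7:25686752-25687051, plus strand: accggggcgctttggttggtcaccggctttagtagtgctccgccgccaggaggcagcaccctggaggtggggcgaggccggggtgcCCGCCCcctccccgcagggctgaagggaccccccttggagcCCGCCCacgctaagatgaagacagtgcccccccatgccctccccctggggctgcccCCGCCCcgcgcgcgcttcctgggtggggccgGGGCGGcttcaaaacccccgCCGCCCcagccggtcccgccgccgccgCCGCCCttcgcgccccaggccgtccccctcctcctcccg
Tgfbi promoter, chr13:56609336-56609635, plus strand: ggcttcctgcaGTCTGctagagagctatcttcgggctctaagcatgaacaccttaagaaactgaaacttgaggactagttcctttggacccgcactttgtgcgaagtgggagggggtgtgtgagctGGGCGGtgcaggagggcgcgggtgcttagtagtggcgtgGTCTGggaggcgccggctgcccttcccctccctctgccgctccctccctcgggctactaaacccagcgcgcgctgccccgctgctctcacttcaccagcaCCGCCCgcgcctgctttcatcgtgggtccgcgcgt

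The window of Tgfb2 has Smad boxes 221 and 204 bases before the start, a CCAAT box 130 bases before it and a TATA box 31 bases before it, and 54.3% of its bases are G or C. These distances are from the RefSeq start at 186705989. The span of Tgfb2 in the expression data reaches 186706220, further upstream, so most of the window lies inside that span. That of Tgfb1, with 77% G or C, holds 6 GC boxes and none of the other motifs. In Tgfbi, Smad boxes lie on the opposite strand 239 and 85 bases before the start, and GC boxes lie 124 bases before and 16 bases after it. Short motifs match often: among 32851 mouse promoter windows, 49.6% hold a Smad box, 35.7% a GC box, 37.4% a CCAAT box and 13.6% a TATA box. The AP-1 site (7.81% of windows) and the cyclic AMP response element (1.79%) have no match in the windows printed. A match is a stretch of letters and not a measured binding site.

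The levels of Tgfb2 and Tgfb1 overlapped between the genotypes and did not pass the test, and the mean of Tgfb3 was lower in FNcKO without passing the test. Tgfb2, the isoform that depends most on the co-receptor Tgfbr3 (chromosome 1, 186622787 to 186706220, minus strand, GRCm38), stood at 13.7, 14.4 and 14.4 FPKM in WT and at 13.9, 15.8 and 14.8 FPKM in FNcKO. The groups overlapped, with means of 14.2 ± 0.374 and 14.8 ± 0.987 FPKM (SD, n = 3 each). Its log2 change was 0.06 ± 0.068 (SE) with limma's adjusted p = 0.691, and the 95% interval of the fold on the FPKM + 1 scale ran from 0.929 to 1.17. A predicted gene, Gm35655, lies within its span at 0.344 to 1.26 FPKM, and whether strand was used in counting is not given in the sources used here.

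Tgfb1, the founding member of the family (chromosome 7, 25687002 to 25705077, plus strand), was at 2.72, 3.52 and 3.38 FPKM in WT. It was at 3.15, 3.37 and 3.49 FPKM in FNcKO, inside the WT range. Its log2 change of 0.05 ± 0.093 (SE) had an adjusted p of 0.823 by limma, with an interval of 0.884 to 1.21 for the fold of FPKM + 1. Without WT replicate 1, the lowest library, the change was -0.036.

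Tgfb3, best known for its part in the fusion of the palate (chromosome 12, 86056743 to 86079041, minus strand), was at 9.05, 10.4 and 10.5 FPKM in WT and at 7.87, 9.24 and 6.10 FPKM in FNcKO. FNcKO replicate 2 lay above WT replicate 1, so the groups overlapped, and FNcKO replicate 3 was the lowest of the 6. The means were 9.99 ± 0.814 and 7.73 ± 1.58 FPKM (SD, n = 3 each), WT being 1.29 times FNcKO. The log2 change was -0.35 ± 0.145 (SE), limma's unadjusted p was 0.0552 and its adjusted p was 0.285. The 95% interval, -0.70 to 0.01, still held 0, and the change was 0.042 when libraries were scaled to a common FPKM total without crystallins. That scaling moved the median change of all tested genes to 0.29. Fewer cells that make Tgfb3 and less Tgfb3 RNA per cell cannot be told apart in whole-lens RNA, and the same holds for every gene below.

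Set against each other within a library, Tgfb2 and Tgfb3 had shares that were separate between the genotypes. Tgfb2 made up 53.8, 50.8 and 50.9% of the summed FPKM of the 3 ligands in WT and 55.7, 55.6 and 60.7% in FNcKO. Tgfb3 made up 35.5, 36.8 and 37.2% in WT and 31.6, 32.5 and 25.0% in FNcKO. Neither set overlapped: the mean share was 5.52 percentage points higher for Tgfb2 in FNcKO, and for Tgfb3 the difference was -6.79 percentage points. Tgfb1 held 10.6, 12.4 and 12.0% in WT and 12.7, 11.9 and 14.3% in FNcKO, with overlap.

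The share of Tgfb2 turned on Tgfb3 as its denominator. The ratio of Tgfb2 to Tgfb3 was 1.52, 1.38 and 1.37 in WT and 1.76, 1.71 and 2.43 in FNcKO, without overlap, but so was the ratio to Tgfb3 of 38.5% of other tested genes and the ratio to Tgfb2 of 29.7%. The ratio of Tgfb3 to Tgfb1 was 3.33, 2.96 and 3.11 in WT and 2.50, 2.74 and 1.74 in FNcKO, and 19.4% of tested genes were separate in their ratio to Tgfb1. The ratio of Tgfb2 to Tgfb1 overlapped, at 5.06, 4.09 and 4.25 in WT and 4.40, 4.69 and 4.24 in FNcKO. The sum of the 3 ligands was 25.5, 28.3 and 28.2 FPKM in WT and 24.9, 28.4 and 24.4 FPKM in FNcKO, also overlapping.

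**Figure D2:**
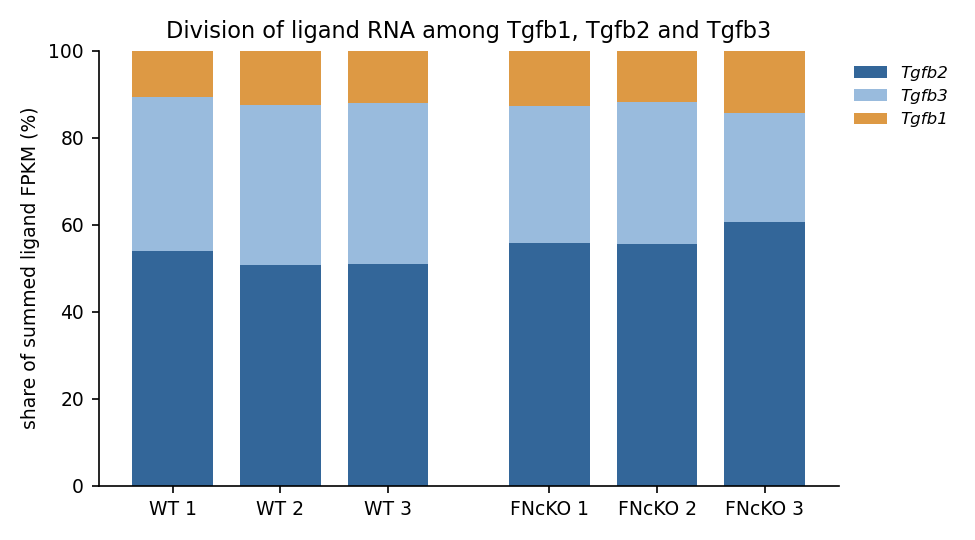
Share of each ligand in the summed FPKM of Tgfb1, Tgfb2 and Tgfb3 (percent, stacked bars from 0), with a bar for each of the 6 libraries. Tgfb3 takes 35.5 to 37.2% in WT and 25.0 to 32.5% in FNcKO, and Tgfb2 takes 50.8 to 53.8% and 55.6 to 60.7%.

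The signalling receptors were present at low levels, and Tgfbr1 did not pass the test. Tgfbr2 and Tgfbr3 were outside the main fit, and the exact permutation test used for them cannot give a p under 0.1. Tgfbr1, the type I receptor kinase (chromosome 4, 47353222 to 47414926, plus strand), was at 1.42, 1.45 and 1.42 FPKM in WT and at 1.53, 1.42 and 1.74 FPKM in FNcKO. The WT libraries had an SD of 0.015 FPKM, FNcKO replicate 2 was at the WT level, and FNcKO replicate 3 was highest. The log2 change was 0.08 ± 0.079 (SE), with limma's adjusted p = 0.670.

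Tgfbr2, the type II receptor that binds the ligand first (chromosome 9, 116087695 to 116175363, minus strand), was near 0 throughout. It read 0.0136 and 0.197 FPKM in WT replicates 1 and 3, and 0.0810, 0.0205 and 0.130 FPKM in FNcKO, which lie between the WT values. Only about 3.43 and 42.1 fragments stand behind the WT values, and 13.8, 3.44 and 20.7 behind those of FNcKO. At so few fragments a difference between the genotypes was not detectable, and the exact two-sided permutation p was 0.8.

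Tgfbr3, also called betaglycan, is a co-receptor that presents TGF-beta, above all Tgfb2, to the type II receptor (chromosome 5, 107106570 to 107289595, minus strand). It was at 0.873, 1.07 and 0.860 FPKM in WT and at 0.765, 0.822 and 0.673 FPKM in FNcKO, so that each FNcKO library lay below each WT library. The means were 0.934 ± 0.117 and 0.754 ± 0.0749 FPKM (SD, n = 3 each), WT being 1.24 times FNcKO, with an exact two-sided permutation p of 0.1. Of 3617 genes with a mean of 0.3 to 1 FPKM, 17.8% were separate in this way in either direction. With the filter lowered to 0.3 FPKM, which let Tgfbr3 into the fit, limma's adjusted p was 0.457. When the libraries were scaled to the same FPKM total its log2 change was -0.02, and 0.06 when the crystallins were left out of the total. Under these scalings the median change of all tested genes was 0.15 and 0.29.

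Within a library the type I receptor stood higher against the co-receptor in FNcKO. The ratio of Tgfbr1 to Tgfbr3 was 1.63, 1.35 and 1.65 in WT and 2.00, 1.73 and 2.58 in FNcKO, without overlap, as was the ratio to Tgfbr3 of 31.4% of tested genes.

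Among the Smads, Smad3 was lower in every FNcKO library while Smad2 and Smad7 overlapped between the genotypes. Smad3, which binds DNA directly and carries most transcriptional responses to TGF-beta (chromosome 9, 63646766 to 63757994, minus strand), was at 2.04 and 2.32 FPKM in WT replicates 1 and 3 and at 1.44, 1.80 and 1.69 FPKM in FNcKO. The means were 2.18 ± 0.199 (SD, n = 2) and 1.64 ± 0.184 FPKM (SD, n = 3), WT being 1.32 times FNcKO, and the FNcKO library nearest to WT was replicate 2. The log2 change was -0.27 ± 0.103 (SE), with limma's unadjusted p = 0.0489 and adjusted p = 0.275, on 5 libraries, WT replicate 2 having no value. With a common FPKM total without crystallins the change was 0.018, and the median change of all tested genes was 0.29. The exact two-sided permutation p was 0.1, the smallest that 2 against 3 allows. Of the 742 tested genes without WT replicate 2, 32.5% did not overlap.

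Smad2, the other Smad that the type I receptor phosphorylates (chromosome 18, 76241265 to 76311748, plus strand), was at 1.25, 1.05 and 1.07 FPKM in WT. It was at 1.18, 1.26 and 1.38 FPKM in FNcKO, and WT replicate 1 lay among these values. Its log2 change was 0.10 ± 0.086 (SE), with limma's adjusted p = 0.609. Smad3 exceeded Smad2 in all 5 libraries with both values, by 1.62 and 2.16 times in WT replicates 1 and 3 and by 1.22, 1.43 and 1.22 times in FNcKO. These ratios did not overlap, nor did the ratio to Smad2 of 27.4% of the tested genes without WT replicate 2.

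Smad7, an inhibitor that TGF-beta itself induces and that blocks the type I receptor (chromosome 18, 75367365 to 75395935, plus strand), was at 1.02, 1.01 and 1.01 FPKM in WT. The FNcKO libraries lay on both sides of these values, at 1.19, 0.873 and 1.09 FPKM. The log2 change was 0.02 ± 0.095 (SE), with limma's adjusted p = 0.925, and it was -0.02 without FNcKO replicate 1.

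Tgfbi, a secreted protein that binds integrins and collagen and is mutated in human corneal dystrophies, had a higher level in every FNcKO library than in any WT library, all below 1 FPKM. It lies on chromosome 13 (56609603 to 56639339, plus strand) and read 0.249, 0.139 and 0.448 FPKM in WT and 0.628, 0.598 and 0.517 FPKM in FNcKO. The means were 0.279 ± 0.157 and 0.581 ± 0.0571 FPKM (SD, n = 3 each), 2.08-fold higher in FNcKO, and WT replicate 3 came nearest to the FNcKO libraries. Its levels rest on about 19.9, 10.3 and 30.6 fragments in the wild-type libraries, against 33.9, 32.0 and 26.1 in the others.

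The separation of Tgfbi is not a called difference. The exact two-sided permutation p was 0.1, and 8.32% of genes with a mean of 0.3 to 1 FPKM also had every FNcKO library above every WT library. The difference of means was 0.31 on the log2(FPKM + 1) scale, 0.49 with a pseudocount of 0.5 and 0.93 with a pseudocount of 0.1. In the fits with a lower filter or none, the lowest adjusted p of Tgfbi by limma was 0.235. The summed ciliary body and iris markers, mainly Optc and Aqp1, were also higher in each FNcKO library. Those of pigment cells, mainly Ttr, were lower, though Tyr and Tyrp1 had higher means in FNcKO. Of 4 fibroblast markers, Pdgfra overlapped, at means of 7.79 and 7.32 FPKM, while Dcn, Lum and Col1a1 averaged at most 0.136 FPKM in either genotype. Of 7 macrophage and leukocyte markers, 6 had a value in every library. Their sum was 1.43 to 2.75 FPKM in WT and 0.601 to 1.75 FPKM in FNcKO, with overlap. Of 3 red blood cell markers, the 2 with such values summed to 0 to 0.486 FPKM in WT and 0.624 to 0.884 FPKM in FNcKO. The part of any of these cells in the level of Tgfbi was not tested.

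**Figure D3:**
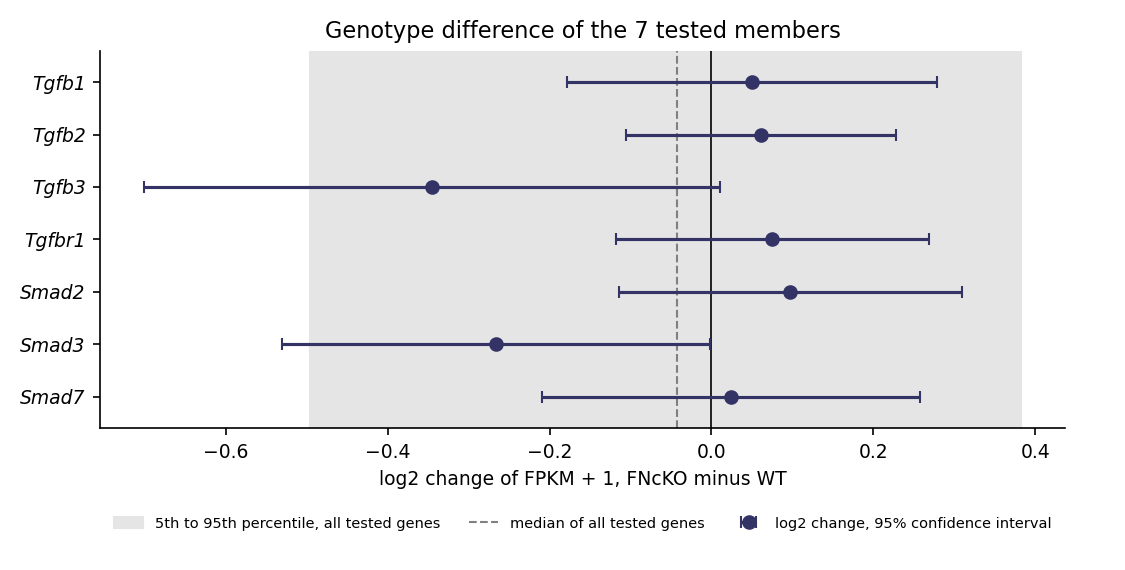
Change from WT to FNcKO of the 7 tested TGF-beta genes on the log2(FPKM + 1) scale (points) with 95% intervals from limma (lines), the median of all tested genes (dashed line, -0.04) and the range from their 5th to their 95th percentile (grey band, -0.50 to 0.38). Tgfb3 (-0.35) and Smad3 (-0.27) lie lowest, and only the interval of Smad3 leaves out 0.

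Seen as a group, 5 of the 7 tested TGF-beta genes had a log2 change above 0 and 2 below it, with a median of 0.05. Of all tested genes 39.7% were above 0, and their median was -0.04. Directions depended on the scale set between libraries: a common FPKM total moved the median of all genes to 0.15, and to 0.29 with crystallins left out of the total. Relative to the median of all genes, Tgfb3 stayed between -0.31 and -0.25 and Smad3 between -0.28 and -0.22 in all 5 scalings. Tgfb2 stayed between 0.10 and 0.17, Tgfb1 between 0.08 and 0.09, Tgfbr1 between 0.04 and 0.12 and Smad2 between 0.04 and 0.14. Smad7 flipped, between -0.05 and 0.07.

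**Figure D4:**
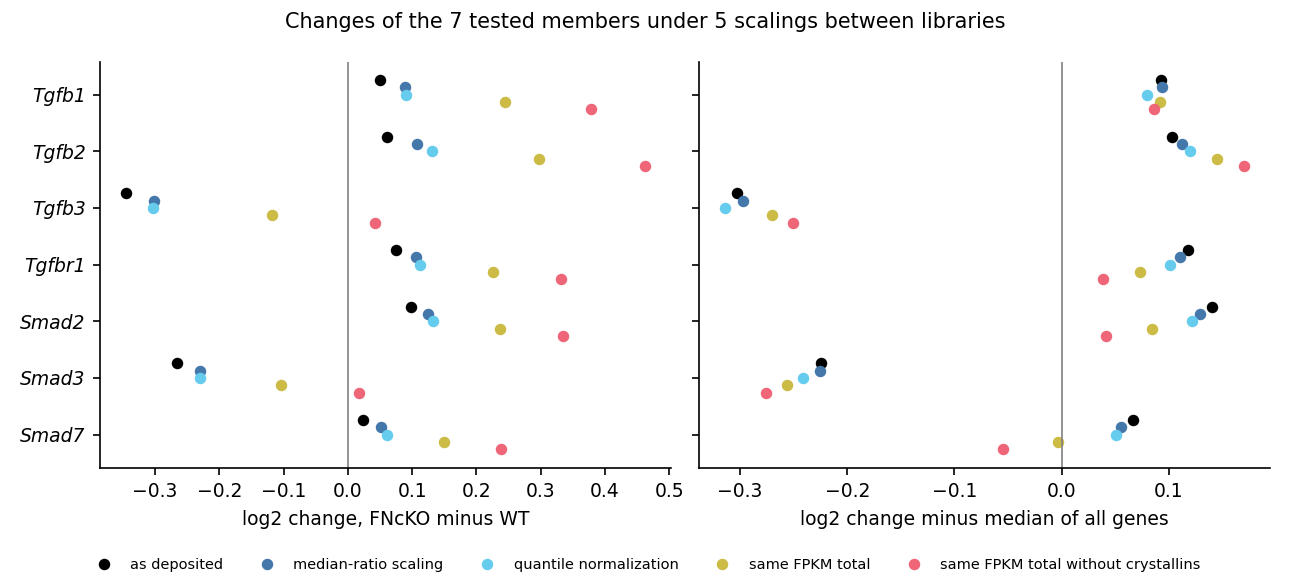
Log2 change of the 7 tested TGF-beta genes under 5 scalings of the libraries, as fitted (left) and after subtracting the median change of all tested genes (right). With a common total that leaves out the crystallins the fitted changes of Tgfb3 and Smad3 reach 0.04 and 0.02, while their change minus the median keeps below -0.2 in every scaling.

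The wider pathway was read from 6 lists of 109 genes, of which 68 were tested. Of the 109, 5 were in more than 1 list. By limma 0 of the 68 had an adjusted p under 0.05, 13 had an unadjusted p under 0.05, near the 18.1% of all tested genes, and with robust empirical Bayes 2 passed. The log2 change was above 0 for 29 and below 0 for 39, with a median of -0.02, and 20 of the 68 did not overlap between the genotypes, near the 25.6% of all tested genes. The signs counted in each list below are those on the deposited scale, on which 39.7% of all tested genes lie above 0 and their median is -0.04. Other scalings moved that median to as much as 0.29 and turned the sign of several named genes.

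Among genes that store and release the latent ligand, 0 of 11 tested passed the test. The change was above 0 for 9 of them, with a median of 0.10, and at 0.02 for Itgb1. Ltbp2, a microfibril protein of the latent binding protein family, was at 1.31, 1.01 and 1.38 FPKM in WT and at 3.32, 2.07 and 2.22 FPKM in FNcKO. Its groups were separate, with a log2 change of 0.65 and an adjusted p of 0.110 by limma. Fbn1, the fibrillin to which latent complexes bind, averaged 3.18 ± 0.849 FPKM in WT and 5.37 ± 1.26 FPKM in FNcKO (adjusted p = 0.204 by limma). The integrin subunits Itgb5 and Itgb1 were the most abundant of the list. Itgb5 averaged 35.3 and 38.9 FPKM (adjusted p = 0.324 by limma) and Itgb1 averaged 19.0 and 19.2 FPKM (adjusted p = 0.910 by limma).

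Antagonists outside the cell had 5 of 6 tested genes above 0, with a median of 0.12 and none past the test. Fmod, a small proteoglycan that binds TGF-beta, averaged 4.68 ± 0.710 FPKM in WT and 6.87 ± 1.10 FPKM in FNcKO, without overlap (adjusted p = 0.170 by limma). The secreted protease Htra3 averaged 21.6 ± 0.851 and 29.2 ± 5.05 FPKM (adjusted p = 0.199 by limma), and its relative Htra1 averaged 56.4 ± 3.56 and 59.1 ± 8.99 FPKM (adjusted p = 0.845 by limma).

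Of 9 tested genes that act on the receptors, 0 passed the test and 8 had a change below 0, with a median of -0.07. With a common FPKM total the changes of Strap (0.20) and Zfyve9 (0.0085) were above 0. Zfyve9, also called SARA, which brings Smad2 and Smad3 to the receptor, averaged 4.76 ± 0.503 FPKM in WT and 4.01 ± 0.0742 FPKM in FNcKO (adjusted p = 0.270 by limma). Nedd4l, a ubiquitin ligase for activated Smads, averaged 2.83 ± 0.223 and 2.36 ± 0.0548 FPKM (adjusted p = 0.242 by limma). Both were without overlap between the genotypes. The most abundant of the list were Ppp1r15a, at means of 25.3 and 29.6 FPKM, and Strap, at means of 18.8 and 18.3 FPKM.

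Other Smads and nuclear partners had a median of -0.02, with 6 of 17 above 0. Pmepa1, a target gene whose product dampens Smad signalling, was at 1.59, 1.47 and 1.56 FPKM in WT and at 2.15, 2.31 and 1.98 FPKM in FNcKO. The groups did not overlap, with a log2 change of 0.31 ± 0.073 (SE) and an adjusted p of 0.110 by limma. Zeb1 and Zeb2, repressors that bind Smads, averaged 5.31 and 12.4 FPKM in WT and 4.47 and 11.1 FPKM in FNcKO, and neither passed the test. Usp9x, a deubiquitinase of Smad4, averaged 12.998 (n = 2) and 12.9 FPKM.

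Of the effectors outside the Smad route, 6 of 14 were above 0, with a median of -0.06. The p38 kinase Mapk14 averaged 8.80 ± 0.268 FPKM in WT and 12.4 ± 3.03 FPKM in FNcKO, with FNcKO replicate 1 at 15.9 FPKM (adjusted p = 0.229 by limma). Map2k6, an upstream kinase of p38, averaged 1.49 and 0.985 FPKM (adjusted p = 0.251 by limma). Rhoa averaged 47.5 (n = 2) and 43.8 FPKM, and Tab2 averaged 17.7 and 16.96 FPKM.

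**Figure D5:**
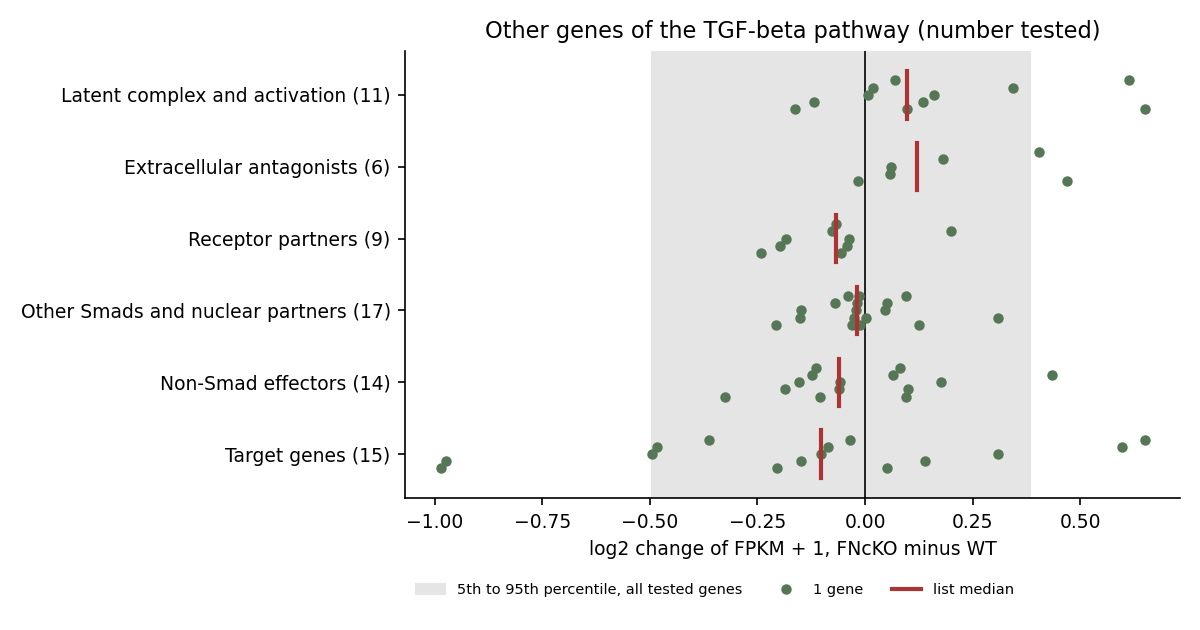
Log2 change from WT to FNcKO of each tested gene in the 6 pathway lists (points) with the list medians (bars), beside the range from the 5th to the 95th percentile of all tested genes (grey band). Medians run from -0.10 for the target genes to 0.12 for the extracellular antagonists, and points of the target genes lie on both sides of the band.

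Of the 15 tested target genes, 5 had a change above 0 and 10 below, with a median of -0.10, and 0 passed the test. An unadjusted p under 0.05 was found for 6 of the 15, against 18.1% of all tested genes. The lists were chosen with earlier results of these data known, so these shares do not test for enrichment. Ltbp2 and Pmepa1, among the 6, also stand in other lists. Acta2, the smooth muscle actin used as a marker of myofibroblasts, was at 93.0, 99.96 and 105.0 FPKM in WT and at 71.1, 64.2 and 77.2 FPKM in FNcKO. Each FNcKO library was below each WT library. The log2 change of Acta2 was -0.48 ± 0.092 (SE), with limma's adjusted p = 0.0702, and 0.0299 with robust empirical Bayes. It was -0.23 (adjusted p = 0.432 by limma) with a common FPKM total and -0.061 (adjusted p = 0.805 by limma) with crystallins left out of the total. The median change of all tested genes was then 0.15 and 0.29.

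Col1a2, a chain of type I collagen, was at 1.116, 1.247 and 0.841 FPKM in WT and at 2.22, 1.86 and 2.30 FPKM in FNcKO. The direction was opposite to that of Acta2 and again without overlap. The log2 change was 0.60 ± 0.109 (SE), with limma's adjusted p = 0.0636, and 0.0357 with robust empirical Bayes. Col4a1, a chain of the type IV collagen of the lens capsule and the most abundant gene of the list, averaged 279.5 ± 9.40 and 263.3 ± 7.40 FPKM (adjusted p = 0.555 by limma).

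Of the other targets, 2 were picked out after their values were seen. Ccn2 (listed as Ctgf), a matricellular protein, averaged 9.47 ± 0.737 FPKM in WT and 7.14 ± 0.515 FPKM in FNcKO (adjusted p = 0.101 by limma), and the transcription factor Tsc22d1 averaged 83.5 ± 1.99 and 72.3 ± 3.91 FPKM (adjusted p = 0.198 by limma). The summed markers of ciliary body and iris, mainly Optc and Aqp1, were higher in each FNcKO library, and their part in the levels of the target genes was not tested.

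The genes most like Tgfb3 and Smad2 were looked up as well, these being the members with a value in all 6 libraries and the smallest limma p. Likeness was the root mean square difference of log2(FPKM + 1) after centring each gene on its own mean, over 7778 candidate genes and 6 libraries. Nearest to Tgfb3 were Babam1 at 0.0418 (Pearson r = 0.991), Tsn at 0.0481 (r = 0.992) and Cmss1 at 0.0604 (r = 0.987). Nearest to Smad2 were Ptprm at 0.0233 (r = 0.956), Flii at 0.0308 (r = 0.911) and Arpc1a at 0.0319 (r = 0.923). These genes were chosen for their likeness from many candidates that share the same 6 libraries, so the coefficients are descriptions and carry no p.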

How the data were processed

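Total RNA of whole lenses was sequenced in 3 WT and 3 FNcKO libraries. The authors deposited FPKM values of all libraries in 1 table. The submitters' processing notes name Cuffdiff 2.2.1, TopHat2 2.1.0, cutadapt 1.12 and FastQC, and the builds GRCm38.p5 and mm10. Not given in the sources used here are the annotation, any scaling between libraries, the handling of multiply mapped fragments and the use of strand. Starts were raised by 1 to count from 1.

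From the deposited FPKM, log2(FPKM + 1) was compared between genotypes for 10149 genes, those averaging 1 FPKM or more, using R 4.3.3 and limma 3.58.1 (moderated by empirical Bayes with a trend, two-sided), and p-values were Benjamini-Hochberg adjusted over all of them with a threshold of 0.05. This scale understates changes of low genes. The 742 tested genes without WT replicate 2 were fitted on 5 libraries. Single values were compared by exact two-sided permutation tests over the libraries. The method was tested on simulated data.

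The genes and lists were chosen with earlier results of these data known. All 10 TGF-beta genes and Fn1 were named, and from each pathway list the genes past the test or else the 2 with the smallest p, plus the 2 most abundant. Depth was estimated from 1452 single-exon genes as the number of fragments that turns their FPKM into whole counts, after taking 200 bases off each length, and 69.9 to 77.7% of the values then fell within 0.15 of a whole number (30.0% by chance). The depths are therefore approximate, and the fragment numbers cover counting error only. Replicate numbers were taken as names only: same-numbered libraries of the genotypes did not deviate together. Alternatives were other pseudocounts, filters, scalings, robust empirical Bayes, a replicate block and leaving out each library. A further target gene is not reported here.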

Additional observations from a re-analysis of the deposited data

How the results depend on the processing

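None of the 7 tested TGF-beta genes passed the test in any of the 17 alternatives, so only sizes and directions moved. The count over all genes, 192 as reported, was 101 with no filter, 89 with the same FPKM total, 86 with the same total without crystallins and 323 with robust empirical Bayes. It ran from 37 (without WT replicate 1) to 117 (without FNcKO replicate 1) when each library was left out. The pathway count, 0 as reported, was 1, 1 and 2 with the same total, the same total without crystallins and robust empirical Bayes: Col1a2 passed in each (adjusted p = 0.0443, 0.0440 and 0.0357) and Acta2 in the last. Among called genes the share higher in FNcKO was 45.3% as deposited, 57.9% with median-ratio scaling, 60.4% with quantile normalization, 70.8% with the same total and 76.7% without crystallins.

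The replicate number as a block gave 14 calls over all genes. It was not taken as a pairing: the correlations of same-numbered libraries' deviations were -0.03, -0.05 and -0.05.

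Leaving out each library, Tgfb1 ran from -0.036 to 0.11, Smad7 from -0.024 to 0.088 and the difference in the ligand share of Tgfb2 from 3.84 to 6.53 percentage points. That difference was 0.00683 when the share was taken of Tgfb1 and Tgfb2 alone. Without crystallins in the total, Tgfb3 was 0.042, Smad3 0.018 and Tgfbr3 0.061. Tgfbr3 was -0.022 with the same total and -0.28 with a pseudocount of 0.1. Tgfbi was 0.93 and 0.49 with pseudocounts of 0.1 and 0.5. The cause was not tested.

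Of 408 alternative values of 24 named pathway genes, 373 kept direction and call, 4 passed the test and 31 changed sign, in 12 genes. With median-ratio scaling, Usp9x was 0.040 and Strap 0.010. With quantile normalization, Rhoa was 0.019, Tab2 0.025, Usp9x 0.053, Strap 0.046 and Col4a1 0.12. With the same total, Rhoa was 0.13, Tab2 0.18, Zeb1 0.0024, Usp9x 0.22, Zeb2 0.082, Zfyve9 0.0085, Strap 0.20, Col4a1 0.17 and Tsc22d1 0.044. Without crystallins these were 0.30, 0.35, 0.15, 0.39, 0.25, 0.15, 0.37, 0.34 and 0.22 in that order, with Nedd4l at 0.13 and Ctgf at 0.019. Leaving out each library, Htra1 ran from -0.052 to 0.16, Usp9x from -0.051 to 0.029 and Strap from -0.079 to 0.019.

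The precision of Fn1, Tgfbr2, Tgfbi and Tgfbr3 is limited by fragments, and that of all genes by 3 libraries a group, with strain and genotype inseparable.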
